A study of Arabidopsis thaliana with 6 samples.

Results

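The 8 genes described here are the conventional actin genes of Arabidopsis thaliana, taken by name and locus. The rule itself uses no measured value, though the family was picked with earlier results of these data known. ACT2 (AT3G18780), ACT7 (AT5G09810) and ACT8 (AT1G49240) form the vegetative class. ACT1 (AT2G37620), ACT3 (AT3G53750), ACT4 (AT5G59370), ACT11 (AT3G12110) and ACT12 (AT3G46520) form the reproductive class. All 8 were found in the gene table used, among its 27444 protein-coding genes on the nuclear chromosomes.

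Actin is the subunit of the microfilaments along which plant cells move organelles and vesicles and which guide tip growth of root hairs and pollen tubes. The Arabidopsis actin family is known for a split in expression. The vegetative genes are active in leaves, stems and roots, and the reproductive genes mainly in pollen, ovules and embryos. WDR5A is a WD40-repeat protein and a core component of complexes of the COMPASS type, which methylate lysine 4 of histone H3, a mark found near the starts of transcribed genes. PKL is a chromatin remodeller of the CHD3 type.

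The data are ChIP-seq summit lists, each line giving the highest point of a called peak. The material was whole seedlings, 9 days old and raised in continuous white light, whose genotype label for all libraries is WDR5A-HA_pkl. By that label every library carried both the HA-tagged WDR5A and the pkl background. The label for the antibody names HA. There were 3 immunoprecipitated (IP) replicates and 3 inputs, described as biological replicates, and only the IP replicates have a summit list here. The library titles read PKL_WT, which is that of the IP replicates, and PKL_jaw-5D. They name neither the bait nor the genotype that the descriptions and the genotype label give. The descriptions and the label were followed, and the conflict was not resolved. The promoter of the tagged gene, the pkl allele and the number of transgenic lines are not stated in the sources at hand, and neither an untagged plant nor a plant with functional PKL was analysed here. The 3 lists held 10864, 10408 and 10826 summits. The strength of a summit is its deposited −log10 q, which ranks peaks inside a list and also grows with sequencing depth, which is unknown. Strengths of the same gene in different lists are therefore shown side by side and are not on a common scale.

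All 3 vegetative actin genes carried a WDR5A-HA summit in every list, and 1 of the 5 reproductive genes, ACT11, did so. ACT1 and ACT12 had a summit in the list of replicate 1 only, and ACT3 and ACT4 had none. Each gene was searched over its body plus 500 bp to either side. Over all protein-coding genes searched in the same way, 24.8% had a summit in all 3 lists and 56.4% had none in any. Among the 7133 genes whose length lay within that of the actin genes, 2177 to 3256 bp, the share with a summit in all 3 lists was 29.3%. With 3 and 5 genes the classes are too small for their counts to be read as more than a description, and genes are not replicates, so no test was made between them.

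**Figure D1:**
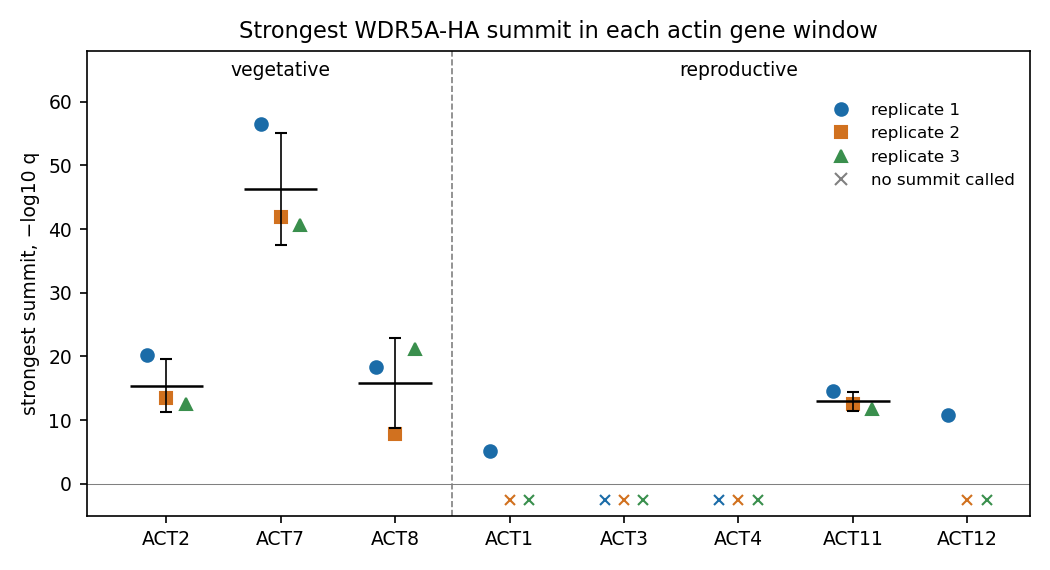
Strength (−log10 q) of the strongest summit in each actin gene window, 1 symbol per replicate list, with the mean and SD over the 3 lists where all had a summit; crosses under the zero line mark lists with no summit called. ACT7 stands between 40.6 and 56.5, while ACT2, ACT8 and ACT11 lie between 7.79 and 21.2.

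ACT7 is the actin gene known for its response to auxin and its role in germination and root growth. Its strongest summit measured 56.5, 41.9 and 40.6 in the lists of replicates 1, 2 and 3, a mean of 46.3 ± 8.80 (SD, n = 3). These values lay above 99.1%, 98.5% and 98.1% of the summits in their lists. Among the 6801 protein-coding genes with a summit in all 3 lists, ACT7 ranked number 97 by mean strength, within the top 1.43%. In each list its value was higher than every value of the 7 other actin genes. No other gene window held any of the ACT7 summits, and the nearest other gene lay at least 3667 bp from the strongest one.

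ACT8 and ACT2 are a closely related pair, both known for roles in root hair growth. The strongest ACT8 summit measured 18.4, 7.79 and 21.2 in replicates 1, 2 and 3, with a mean of 15.8 ± 7.09 (SD, n = 3). In replicates 1 and 3 it fell inside the neighbouring gene AT1G49245. The strongest ACT2 summit measured 20.3, 13.5 and 12.5, with a mean of 15.4 ± 4.21 (SD, n = 3). The values of these genes overlapped. ACT8 was above ACT2 in replicate 3 and below it in the other lists. Both means lay above the median of 8.90 over genes with a summit in all 3 lists and below the 90th percentile of 22.8.

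ACT11 is known for expression in pollen, ovules and young embryos. Its strongest summit measured 14.6, 12.5 and 11.8 in replicates 1, 2 and 3, with a mean of 12.99 ± 1.48 (SD, n = 3). By mean strength the order was ACT7, ACT8, ACT2 and ACT11. The spread between lists also holds differences of scale, so no difference among the last 3 is read from their means. The places of ACT8 and ACT2 turned without replicate 3, at 13.1 and 16.9, and with each summit given to 1 gene, at 7.53 and 15.4, so no order between them is read. ACT11 was below ACT2 in each list, and above ACT8 in the list of replicate 2. The rank of ACT11 among genes with a summit in the same list was in the top 20.5%, 21.2% and 25.0%. These strongest summits fell inside the neighbouring gene FAD2 in replicates 1 and 3. In replicate 2 the summit lay 95 bp from ACT11 and 67 bp from FAD2. The summits closest to ACT11 measured 6.18, 9.50 and 4.54, above 42.7%, 69.4% and 30.0% of the summits in their lists.

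The remaining reproductive genes had either a weak summit, a summit that another gene also holds, or none. ACT1 and ACT3 form a pair of close relatives known for expression in pollen, as do ACT4 and ACT12. The ACT1 summit of replicate 1 had a strength of 5.23, lay 492 bp outside ACT1 and fell inside the neighbouring gene AS1, a MYB-type regulator of leaf development. The ACT12 summit of replicate 1 had a strength of 10.8 and lay inside the gene, 541 bp from its edge, in sequence that the table also gives to RPP13, a disease resistance gene. Just beyond the window of ACT12, summits of 12.6 in replicate 3 and 4.67 in replicate 2 lay 524 and 861 bp from the gene. At ACT4 the nearest summits of replicates 1 and 2 lay 511 and 543 bp away, just outside the window, with strengths of 5.29 and 4.30, and that of replicate 3 lay 2141 bp away. At ACT3 the nearest summits were 1769, 2015 and 1807 bp away. These distances show how close ACT12 and ACT4 stood to the limit of 500 bp, and that ACT3 did not.

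Counted as summits per gene, the vegetative windows held 7, 8 and 6 summits in replicates 1, 2 and 3, or 2.33 ± 0.333 per gene (SD, n = 3). The reproductive windows held 4, 2 and 2, or 0.533 ± 0.231 per gene (SD, n = 3). The mean over all protein-coding genes was 0.436 ± 0.00887 per gene (SD, n = 3). The vegetative value was above the reproductive one in each list, and the ranges over lists did not overlap. The value of the reproductive class was near that of all genes, and in every list at least 2 of its summits were the pair at ACT11. Over genes with a summit, the strongest summit averaged 25.9 ± 5.38 per vegetative gene and 11.5 ± 1.17 per reproductive gene (SD over lists, n = 3). The same measure over all protein-coding genes with a summit was 10.1 ± 0.687 (SD over lists, n = 3). The reproductive mean rests on 3 genes in replicate 1 and on ACT11 alone in the other lists, and the vegetative mean is raised by ACT7, as the class medians of 20.3, 13.5 and 21.2 show.

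**Figure D2:**
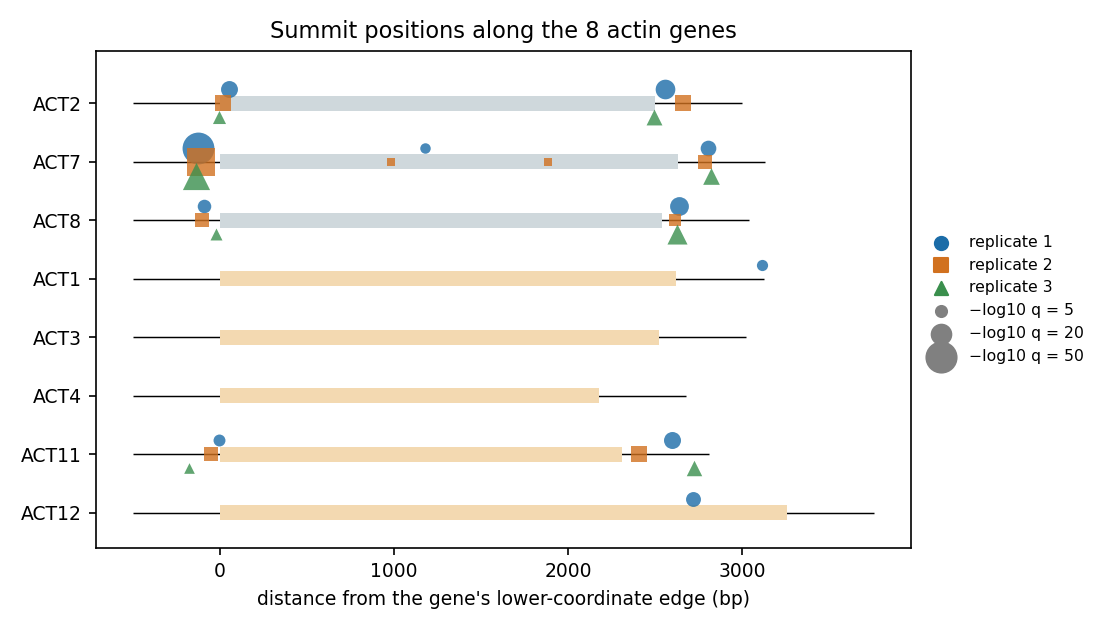
Position of every summit in the 8 actin gene windows, as distance in bp from the gene's lower-coordinate edge; bars are genes (grey vegetative, tan reproductive), thin lines the 500 bp flanks, and symbol area grows with −log10 q. ACT2, ACT7, ACT8 and ACT11 show a group of summits of all 3 replicates at each end, and ACT3 and ACT4 are empty.

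The summits stood at both ends of the gene in each of the 4 actin genes that had them in every list. Of the 29 summits in actin windows 22 lay outside the gene and 7 inside, so 24.1% lay inside, against 49.3% of the summits counted over all protein-coding gene windows. These are not independent sites, since each list adds its own summit. Linked within 250 bp, they formed 6 regions shared by the 3 lists at vegetative genes and 2 at reproductive genes. The 49.3% is over genes of every length. Some summits outside ACT8, ACT11 and ACT1 lay inside a neighbouring gene. To compare this layout with other genes, each window was divided at the middle of the gene into a lower and a higher part, a definition chosen after the actin summits had been seen. A summit in both parts in all 3 lists was found at ACT2, ACT7, ACT8 and ACT11. Over all protein-coding genes the share was 3.47%, and over genes within the length range of the actins 4.12%. Of the genes with a summit in all 3 lists, 14.0% had this layout. The gene table carries no strand, so which end is the start of the gene is not stated here.

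At ACT7 the strong summits gathered at the lower-coordinate end. They stood at position 3051934 of chromosome 5 (TAIR10, median of the 3 lists), 111 to 141 bp outside the gene and within 30 bp of each other. At the other end, around position 3054866, the strengths were 12.1, 10.5 and 14.0, with the summits 157 to 193 bp outside the gene. The lower end was stronger in each of the 3 lists, 46.3 against 12.2 on average, and the values of the ends did not overlap. Weak summits inside the gene, of 4.33 in replicate 1 and of 2.01 and 1.38 in replicate 2, were not shared by all lists.

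At ACT2 the ends were closer in strength. The lower end, at position 6474724 of chromosome 3, measured 14.5, 13.1 and 7.85, and the higher end, at position 6477265, measured 20.3, 13.5 and 12.5. The higher end was the stronger one in each list, by 3.63 ± 2.79 on average (SD, n = 3), but the ranges of the ends overlapped. The higher summits also entered the window of the neighbouring gene AT3G18790, 290 to 460 bp from it, and lay closer to ACT2 in each list. The lower summits lay within 51 bp of the gene edge on either side of it.

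At ACT8 the lower end, at position 18215709 of chromosome 1, measured 8.57, 7.79 and 6.24, and the higher end, at position 18218424, measured 18.4, 7.61 and 21.2. The higher end was stronger in replicates 1 and 3 and slightly weaker in replicate 2. The higher summits stood within 25 bp of each other, 74 to 99 bp outside ACT8, and they fell inside the neighbouring gene AT1G49245. Given to that gene, they leave ACT8 with its lower end, a mean of 7.53 ± 1.19 (SD, n = 3).

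At ACT11 the lower end, at position 3857730 of chromosome 3, measured 6.18, 9.50 and 4.54, and the higher end, around position 3860378, measured 14.6, 12.5 and 11.8. The higher end was stronger in each list, by 6.25 ± 2.86 on average (SD, n = 3), and the ranges did not overlap. Its summits were less tightly placed than those of the vegetative genes, over 318 bp, against 25 to 170 bp at the higher ends of ACT2, ACT7 and ACT8. In replicates 1 and 3 they fell inside the neighbouring gene FAD2, which encodes an oleate desaturase, and in replicate 2 between both genes, 95 bp from ACT11 and 67 bp from FAD2. With each summit given to the closest gene, ACT11 kept a summit in all 3 lists through its lower end alone, with a mean of 6.74 ± 2.53 (SD, n = 3). The lower summits of ACT11 lay 7 to 178 bp outside it and 283 to 454 bp from AT3G12100, whose window they also entered. Both ends of the single reproductive gene with summits in every list thus lay in windows of neighbours. So did the higher ends of ACT2 and ACT8 in all 3 lists, and neither end of ACT7.

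**Figure D3:**
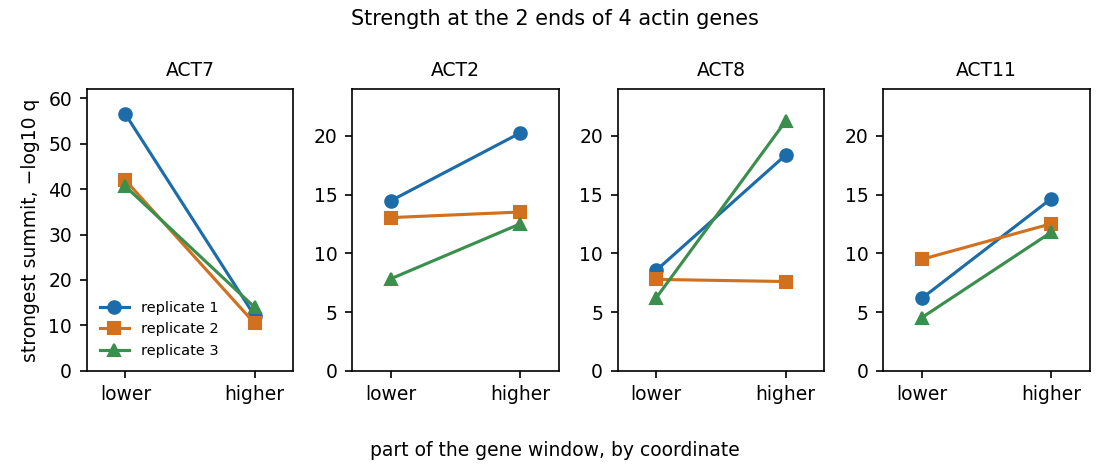
Strongest summit (−log10 q) in the lower- and higher-coordinate part of the window for the 4 actin genes with summits at both ends, 1 line per replicate list; the ACT7 panel has its own vertical scale. ACT7 goes from a mean of 46.3 at the lower end to 12.2 at the higher, and ACT11 goes from 6.74 to 12.99.

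Among other protein-coding genes, those whose strongest summits were most like those of ACT7 over the 3 lists were DFL2 (AT4G03400), IAA16 (AT3G04730) and HB16 (AT4G40060). Likeness was the Euclidean distance of log10 strengths over the 3 lists, and it was 0.0383, 0.0389 and 0.0389 for these genes. DFL2, of the GH3 family, measured 52.2, 41.3 and 39.1. IAA16, an Aux/IAA repressor gene, measured 53.1, 39.5 and 41.5. HB16, a homeodomain-leucine zipper gene, measured 59.1, 45.2 and 41.4. With 3 lists this likeness describes equal strength and no more.

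Other genes of the cytoskeleton, in lists chosen by name, were counted in the same windows. These lists need not hold whole gene families. Of 48 actin-related and actin-binding genes, 16 (33.3%) had a summit in all 3 lists, 8 in 2 lists, 5 in 1 list and 19 in none, and 0 of the 48 had summits in both parts of the window in all 3 lists. Set against the 24.8% and 3.47% of all protein-coding genes, both counts are not far from the background. Of 15 tubulin genes, whose products form microtubules, 9 had a summit in all 3 lists, 3 in 2 lists and 3 in none, and TUA2, TUA3, TUA5 and TUB5 had one in both parts of the window, 4 of 15 where the share over all protein-coding genes was 3.47%. The tubulins were not tested against the other genes.

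Profilins bind actin monomers, and in this family too vegetative and pollen genes can be set side by side. The vegetative genes PRF1 and PRF2 had a summit in every list, PRF1 at 10.4, 8.26 and 6.84 and PRF2 at 13.5, 5.99 and 6.18, while the vegetative gene PRF3 and the pollen genes PRF4 and PRF5 had none. PRF5 is the neighbour of PRF1, with 1290 bp between them, and PRF4 is the neighbour of PRF2, with 1189 bp between them. In both adjacent pairs the vegetative gene carried the summit and the pollen gene did not. Over all protein-coding genes 24.8% had a summit in all 3 lists and 56.4% had none in any. A few empty genes are thus near the background, and no split between the profilin classes is read from them.

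Many actin-depolymerizing factors sever and disassemble filaments, though this does not hold for every member of the family. Of the 7 vegetative genes, ADF2, ADF5 and ADF9 had a summit in all 3 lists, ADF1, ADF3 and ADF4 in 2 lists, and ADF6 in 1. By mean strength among those with a summit in all 3 lists, ADF5 came first, at 20.1, 15.9 and 22.6, and ADF2 next, at 8.25, 11.3 and 4.09. The ADF2 values of replicates 1 and 2 come from summits inside the neighbouring gene ADF1, 193 and 155 bp outside ADF2. The adjacent genes ADF3 and ADF4 shared summits of 5.03 and 12.02 in replicates 2 and 3. Of the 4 genes known from pollen or root hairs, ADF8 had a summit in all lists, at 6.59, 3.34 and 3.79, ADF10 in 1, and ADF7 and ADF11 in none. The strongest ADF8 summits lay up to 410 bp outside the gene, and those of ADF9 up to 402 bp. Over all protein-coding genes 24.8% had a summit in all 3 lists and 56.4% had none in any. The 1 of 4 is near that share, and with 7 and 4 genes no difference between these groups is read.

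The groups that follow are small, and their counts stand against 24.8% of all protein-coding genes with a summit in all 3 lists and 56.4% with none, so a 0 among a few genes is near the background. Among actin-related proteins 4 of 8 genes had a summit in every list. ARP5, a subunit of the INO80 chromatin remodelling complex, measured 12.9, 15.7 and 15.1, and ARP8 measured 11.8, 7.48 and 6.89. The strongest ARP8 summits lay up to 432 bp outside the gene. ARP4 and ARP6 also had a summit in every list. ARP2 and ARP3, which with the ARPC subunits nucleate branched filaments, had none, and neither had ARP7 and ARP9. Of the 7 ARPC genes 0 had one in all 3 lists, ARPC2A had one in 2 lists, ARPC4 in 1 list and 5 in none. Among the 10 bundling, capping and sequestering proteins 5 had a summit in every list, led by the fimbrin gene FIM1, at 15.0, 15.2 and 10.5, and by the capping protein gene CPA, at 16.97, 5.51 and 10.7. The fimbrin gene FIM5, known from pollen, had none, like VLN1, VLN5 and CPB of the same list. Of the 4 formin genes listed 3 had a summit in 2 lists and 1 had none. Of the 3 class XI myosin genes listed MYA1 had a summit in all 3 lists, at 2.87, 9.96 and 8.002. The strongest MYA1 summits lay up to 436 bp outside the gene. MYA2 had a summit in 2 lists and XIK in 1 list.

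Among tubulins the strongest summits were at TUB5, with 30.4, 26.8 and 25.6, followed by TUA5 with 23.1, 10.6 and 12.4, TUA2 with 14.8, 8.05 and 14.8, and TUB3 with 10.5, 14.2 and 11.5. In each list TUB5 had the highest value among the listed cytoskeleton genes other than actins. It was below that of ACT7 in the same list, at 56.5, 41.9 and 40.6. The tubulin genes known from pollen, TUA1 and TUB9, had a summit in 2 lists and in none. So had other tubulin genes: TUB4 and TUB6 had a summit in 2 lists, and TUB1 and TUB8 in none. Over all protein-coding genes 56.4% had none in any list, and no trait of pollen genes is read from these tubulins. The pollen genes named here were few, and their absence from a list means that no peak was called, not that WDR5A was shown to be absent.

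**Figure D4:**
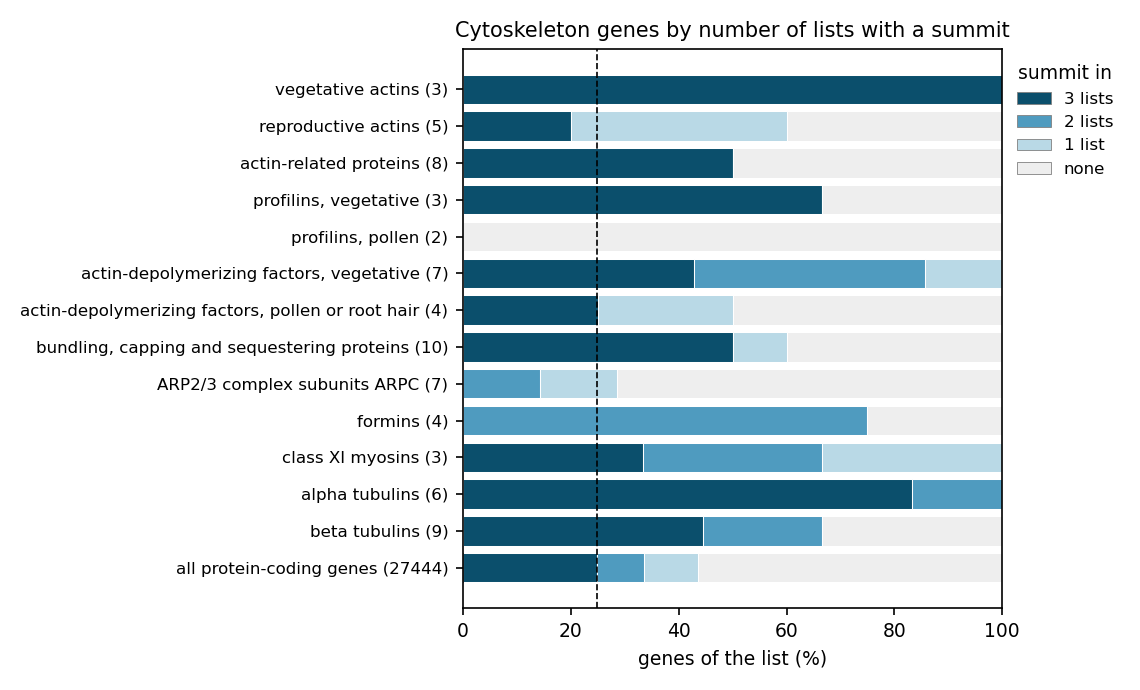
Share of the genes of each cytoskeleton list (number of genes in brackets) with a summit in 3, 2, 1 or none of the replicate lists; the dashed line is the share of all protein-coding genes with a summit in all 3 lists, 24.8%. The vegetative actins fill the bar and the alpha tubulins reach 5 of 6. The 2 pollen profilins are empty, as were 56.4% of all protein-coding genes.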

How the data were processed

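The submitters' processing notes name MACS2 2.2.5, Bowtie2 2.3.3, deepTools and fastp, and as build TAIR10. Thresholds, use of the inputs and the handling of reads that map to several actin copies are not stated in the sources at hand. The deposited strengths were read as −log10 q, since their minimum sits at 1.301, the −log10 of 0.05. Lists carry peak names of their own replicate and were taken as called per sample.

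Gene positions and symbols came from the RefSeq table of assembly TAIR10.1. Its fit to the lists was checked by moving the summits 500 to 5000 bp to either side: in 26 of 26 blocks of 5 Mb, more summits stood near edges of protein-coding genes (250 bp or closer) unmoved than moved. All 71 listed loci matched. Windows were the gene plus 500 bp. A summit counted for every gene whose window held it. Summits within 250 bp were linked into regions. Python 3.11.15, pandas 2.3.3 and NumPy 2.4.6 were used, and the window code was tested on simulated data. Means and SDs are over the 3 lists, and no test was run. No sequence, strand or exon was used here, so the planned promoter motif search was not run.

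Members and lists were chosen with earlier results of these data known. Besides all actin genes, the text names up to 2 genes of each list with the highest mean strength, genes sharing an actin summit and the 3 genes most like ACT7. Other list genes were named after their values were seen.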

Additional observations from a re-analysis of the deposited data

How the results depend on the processing

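Of 110 recomputed values, 85 stayed within the spread between lists, or within 1.5 times for counts and percentages, and 25 moved. With gene bodies alone, 1 vegetative gene (ACT2) and 0 reproductive genes had a summit in all 3 lists, against 11.1% of protein-coding genes. Summits per gene then fell to 0.667 and 0.0667, and the strongest vegetative summit averaged 9.82. With 1000 bp flanks ACT12 joined ACT11, making 2 reproductive genes, against 29.3% of protein-coding genes. The reproductive class then had 0.8 summits per gene and a strongest summit of 9.45. With 250 bp flanks the strongest reproductive summit averaged 8.52 and that of ACT11 7.75. With each summit given to 1 gene the reproductive class had 0.267 summits per gene and a strongest summit of 7.51. With only the stronger summits, those not under the median of their list, there were 1.89 per vegetative gene. Leaving out each replicate in turn kept 3 vegetative genes and 1 reproductive gene with a summit in every remaining list. The share of protein-coding genes was then 27.5% to 28.1%.

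The layout with summits in both parts of the window, defined after the data were seen, was found at 2 actin genes, ACT2 and ACT7, both with each summit given to 1 gene and with the stronger summits only, against 2.00% and 0.791% of protein-coding genes. It was found at 3 with 250 bp flanks, against 2.46% of protein-coding genes. With gene bodies alone it was found at 0, against 0.798%, so that 0 is near the background. With summits linked at 100 bp in place of 250 bp, the 2 regions of all lists at ACT11 became 0 and the 6 at the vegetative genes 5. The depth is unknown, so a gene without a summit is one at which none was called.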
